A study of Danio rerio with 12 samples.

Results

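The keratins and epidermal genes described here are 31 of the 25902 genes in the count table. They were chosen by zebrafish gene name, with earlier results of these data known. The rule took names that start with *krt*, *cyt1* or *icn*, together with *tp63*, *epcam*, *evpla*, *ppl*, *agr2*, *foxi3a* and *foxi3b*. The names came from the study's own gene table for 4 members and from Ensembl for the other 27. The choice by name also takes in *krtcap2*, a subunit of the enzyme complex that attaches sugars to new proteins, which is not a keratin. Of the 31 members, 29 had enough counts to be tested. The keratins *krt93* and *krt95* had at most 6 counts in any library and were not.

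RNA was taken from whole zebrafish embryos at 48 hours post fertilisation (hpf), with 3 libraries in each of 4 groups and 20 embryos in each replicate. Mutant larvae were homozygous for the *mcr* allele of *apc*, which truncates the Apc protein, a brake on Wnt signalling. WT larvae were their siblings without the mutant phenotype, sorted by morphology at 24 hpf, so this group pools wild-type and heterozygous animals. From 24 hpf both genotypes were given either vehicle (0.1% DMSO) or 100 nM rapamycin, an inhibitor of mTORC1. The 4 groups are called WT vehicle, mutant vehicle, WT rapamycin and mutant rapamycin. The *mcr* allele was present in every cell of the mutants, so a change in the skin was not measured apart from a change in any other tissue.

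Keratins form the intermediate filaments of epithelial cells, and each filament pairs an acidic type I keratin with a basic type II keratin. The skin of a fish embryo has an outer layer, the periderm, and a basal layer that rests on the basement membrane and depends on the transcription factor p63. Ionocytes, which exchange ions with the water, and mucous cells sit among the keratinocytes, and simple internal epithelia rely mostly on the pair formed by keratins of the *krt8* and *krt18* kind.

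Libraries held 51692772 to 82364863 counts. Each library was correlated by rank over genes with the mean of the other libraries of its group. WT rapamycin replicates 2 and 3 stood apart from the rest, at 0.977 and 0.971, against 0.989 to 0.996 for the other 10 libraries. Results in rapamycin that changed their side of a threshold without them are given with and without them. The *apc* transcript, in which the allele is a truncating one and need not remove the RNA, was at 127 to 128 CPM (counts scaled to a common library size) in WT vehicle and 73.2 to 102 in mutant vehicle larvae (log2 fold change −0.49, SE 0.12, adjusted p = 0.0153). The mutant and WT libraries differed widely: 7.95% of 22335 genes tested were called in vehicle. Calling a gene took 2 conditions, an adjusted p below 0.05 (edgeR's quasi-likelihood test, adjusted by Benjamini-Hochberg over all genes tested) and at least a 2-fold change. A gene that met only the first is said to have passed the test. All levels are CPM, scaled by TMM, and not divided by gene length, so they compare libraries and not genes.

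The members took 3.76 ± 0.277% of all counts in WT vehicle larvae (mean ± SD, n = 3) and 3.36 ± 0.386% in mutant vehicle larvae. With rapamycin the shares were 3.43 ± 0.0692% in WT and 3.63 ± 0.490% in mutant larvae, an order that turned, to 4.37% and 4.30%, when the 20 other genes of largest count were taken out of each library. The range of 3.44 to 3.93% in WT vehicle larvae overlapped that of 2.91 to 3.61% in mutant vehicle larvae. Most of this came from a few keratins: *krt4* alone held on average 1.24% of the counts of a library, the fifth largest share of any gene, *cyt1* held 0.686% and *cyt1l* 0.624%.

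In vehicle, 5 of the 29 members tested were called, against 7.95% of all genes. These were *krt18b* and *krt97*, which rose (4.05% of all genes were called higher), and *krt1-19d*, *krt1-c5* and *krtt1c19e*, which fell (3.9% were called lower). All but *krt18b* had their names from the study's list of genes that differed between the genotypes, so this count is not independent of that list. Without the 2-fold minimum 16 members passed the test, 7 higher and 9 lower, against 28.4% of all genes (14.8% higher and 13.6% lower). The values of mutant and WT larvae did not overlap for 18 of the 29, against 43.8% of all genes. The median log2 fold change of the members was −0.19, and that of all genes tested was −0.00426; members moved in both directions. These are bulk libraries of whole larvae, in which fewer cells of a type and less RNA per cell cannot be told apart.

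**Figure D1:**
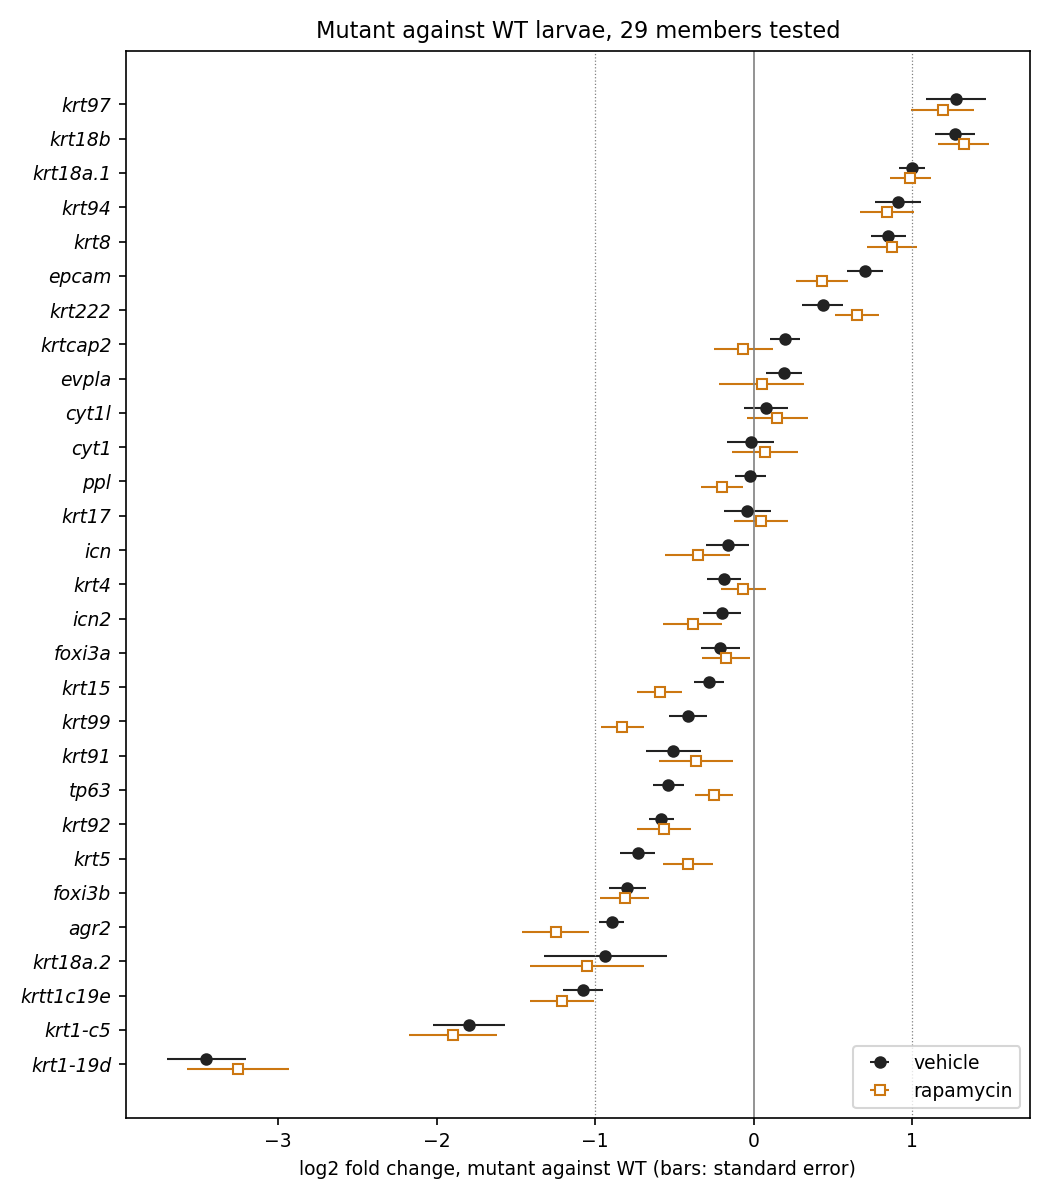
Log2 fold change of mutant against WT larvae (horizontal axis) for the 29 members tested, in vehicle (filled circles, 6 libraries) and in rapamycin (open squares, model of 12 libraries); bars are standard errors and dotted lines mark a 2-fold change. The values run from −3.45 for *krt1-19d* to 1.28 for *krt97* in vehicle, and 26 of 29 members have the same sign in both treatments. The share of all genes with the same sign was not counted.

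Of the keratins of the *krt8* and *krt18* kind, *krt8*, *krt18a.1* and *krt18b* rose in mutant larvae, and *krt18a.2* did not. The type II keratin *krt8* was at 900, 857 and 768 CPM in the 3 WT vehicle libraries and at 1741, 1398 and 1414 CPM in the 3 mutant vehicle libraries, with no overlap (log2 fold change 0.85, SE 0.11, adjusted p = 0.000629). Its usual type I partner, *krt18a.1*, was at 322, 323 and 295 CPM in WT and 658, 598 and 624 CPM in mutant larvae. The change in *krt18a.1* (0.998, SE 0.08, adjusted p = 5.26e-05) fell just short of 2-fold, so the gene passed the test and was not called. It passed the 2-fold minimum without WT vehicle replicate 1 (log2 fold change 1.02), without WT vehicle replicate 2 (1.03) or without mutant vehicle replicate 2 (1.03).

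The other *krt18* copy expressed at this level, *krt18b*, showed the larger change. It was at 183, 165 and 188 CPM in WT vehicle and 435, 359 and 502 CPM in mutant vehicle larvae, 2.41-fold higher (1.27, SE 0.13, adjusted p = 0.000169). The lowest mutant library lay well above the highest WT library. The near copy *krt18a.2* was hardly expressed, at 0.421, 1.23 and 0.936 CPM in WT vehicle and 0.385, 0.507 and 0.458 CPM in mutant vehicle libraries (27 to 97 counts), and did not pass the test (−0.94, SE 0.39, adjusted p = 0.105). It was called lower without WT vehicle replicate 1 (−1.26, adjusted p = 0.0207). The sequences of *krt18a.1* and *krt18a.2* were not compared here. Any reads they share may have been divided between them in the counting, so the split between them is uncertain.

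Both *krt8* and *krt18a.1* rose, and the ratio of their counts within a library was 2.68 ± 0.0994 in WT vehicle and 2.42 ± 0.201 in mutant vehicle larvae (mean ± SD, n = 3), with overlapping ranges of 2.60 to 2.79 and 2.27 to 2.65. The ratio of *krt8* to *krt4* was 0.0639 ± 0.00100 in WT vehicle and 0.131 ± 0.0107 in mutant vehicle larvae, and that of *krt8* to *krt5* was 0.509 ± 0.0821 and 1.54 ± 0.348. Neither of these ratios overlapped between the genotypes. Since each is taken within a library, the scaling of the libraries has no part in them.

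**Figure D2:**
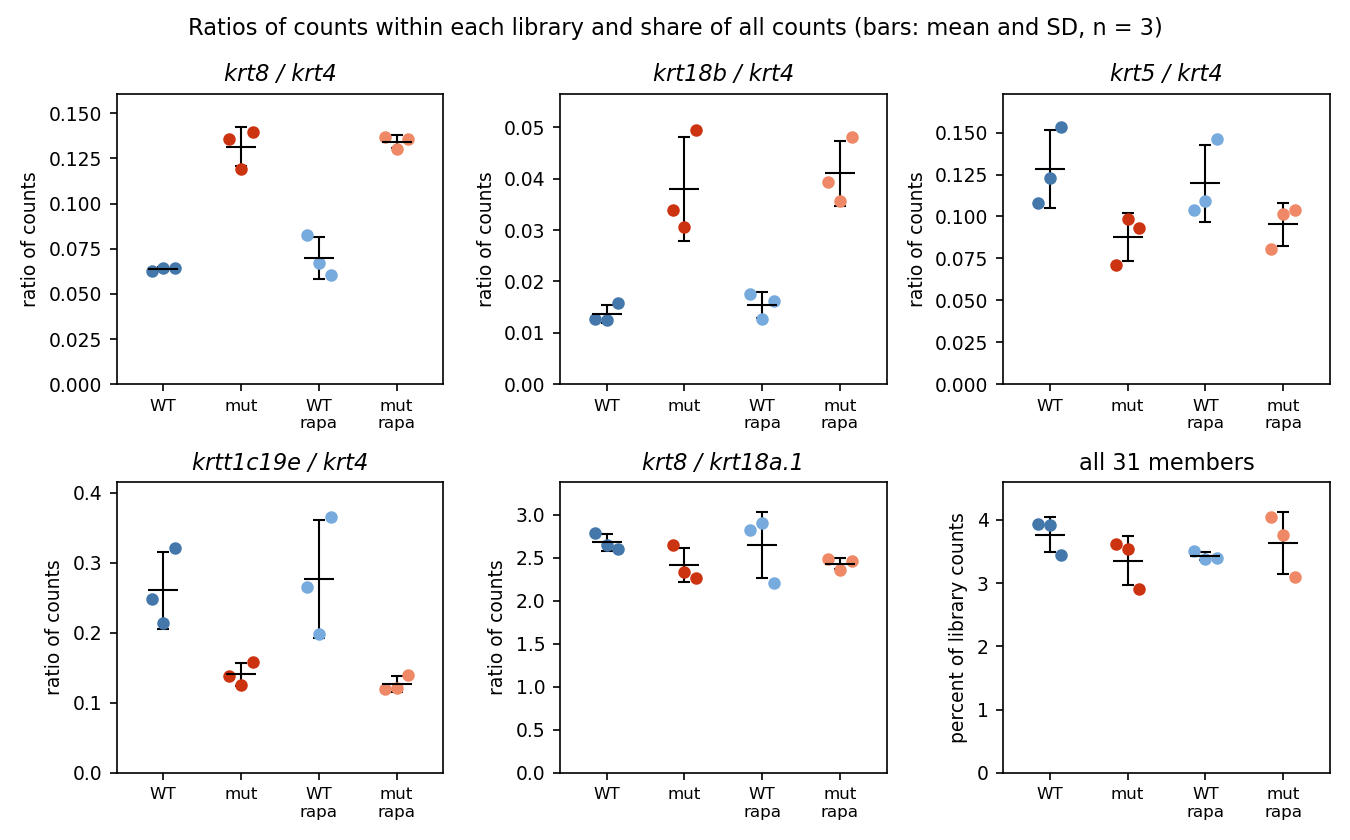
Ratios of the counts of pairs of keratins within each library, and the percent of library counts held by all 31 members (last panel), in the 4 groups (WT and mut, vehicle; WT rapa and mut rapa, rapamycin); points are libraries, bars mean and SD (n = 3). The *krt8* to *krt4* ratio lies between 0.0628 and 0.0645 in WT vehicle and between 0.119 and 0.139 in mutant vehicle larvae, whereas the share of all 31 members overlaps.

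The keratin *krt97* also rose, with a log2 fold change in vehicle close to that of *krt18b*. It was at 302, 267 and 213 CPM in WT vehicle and 824, 517 and 557 CPM in mutant vehicle larvae, 2.42-fold higher (1.28, SE 0.19, adjusted p = 0.00137). Its neighbour in the genome, *krt222*, was at 8.81, 12.1 and 9.81 CPM in WT and 15.003, 12.8 and 13.7 CPM in mutant larvae (0.44, SE 0.13, adjusted p = 0.0353). The mutant libraries of *krt222* were above the WT libraries, but the test no longer passed without WT vehicle replicate 1, WT vehicle replicate 3, mutant vehicle replicate 1 or mutant vehicle replicate 3, each left out alone, with a largest adjusted p of 0.121.

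The epithelial cell adhesion molecule *epcam*, a surface glycoprotein of epithelia, also rose. It was at 335, 302 and 301 CPM in WT vehicle and 540, 427 and 561 CPM in mutant vehicle larvae (0.70, SE 0.11, adjusted p = 0.00219). Of 11 tested genes of desmosomes and adherens junctions, the contacts that tie keratin filaments and actin to neighbouring cells, 4 rose and 1 fell. Beside this and the later list counts in vehicle stand the shares of all genes that passed, 14.8% higher and 13.6% lower. Called among them were *cdh1*, which encodes E-cadherin (1.24, SE 0.07, adjusted p = 1.49e-05), and *pkp2*, a plakophilin of desmosomes (1.33, SE 0.11, adjusted p = 6.39e-05). With the replicate number as a block, 5 of these 11 rose and 3 fell. More of all genes were also called with the block in vehicle, 929 higher and 931 lower against 905 and 870 without it. The share of all genes that passed with the block was not counted, so block counts of lists have no share beside them. The summed level of that list was 759 to 765 CPM in WT vehicle and 950 to 983 CPM in mutant vehicle larvae, and without the genes called, *cdh1* and *pkp2*, it was 630 to 638 and 634 to 689 CPM, which overlapped.

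The largest change of any member was the fall of *krt1-19d*, a type I keratin. It was at 41.7, 36.8 and 42.7 CPM in WT vehicle and 5.04, 3.85 and 2.22 CPM in mutant vehicle larvae, 10.9-fold lower (−3.45, SE 0.25, adjusted p = 3.01e-05). The 3 mutant libraries were all far below the 3 WT libraries. Of all genes tested in vehicle, 0.43% had a larger absolute log2 fold change.

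The type I keratin *krtt1c19e*, a marker of basal keratinocytes in zebrafish, lies next to *krt1-19d* and was far more abundant. It was at 3551, 2834 and 3829 CPM in WT vehicle and 1775, 1474 and 1604 CPM in mutant vehicle larvae, 2.11-fold lower with no overlap (−1.07, SE 0.12, adjusted p = 0.000378). Its change fell under 2-fold, and so the call was lost, without WT vehicle replicate 3 (−0.98, adjusted p = 0.00196). Within a library, the counts of *krtt1c19e* were 83.9 ± 6.39 times those of *krt1-19d* in WT vehicle and 486 ± 205 times in mutant vehicle larvae, so the fall of *krt1-19d* was the steeper.

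The remaining call was *krt1-c5*, another type I keratin, which was at 17.5, 15.3 and 16.04 CPM in WT vehicle and 5.94, 5.24 and 2.92 CPM in mutant vehicle larvae. It was 3.47-fold lower (−1.80, SE 0.22, adjusted p = 0.000559), and every mutant library was below every WT library.

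The type II keratin *krt5*, found in both layers of the larval skin, was at 1546, 1632 and 1830 CPM in WT vehicle and 915, 1155 and 945 CPM in mutant vehicle larvae. It fell by less than 2-fold, with no overlap (−0.73, SE 0.11, adjusted p = 0.00151). The transcription factor gene *tp63*, which encodes p63 and is needed to form and maintain the basal layer, moved the same way, from 39.1, 43.0 and 49.0 CPM to 28.6, 30.2 and 31.5 CPM (−0.54, SE 0.10, adjusted p = 0.00414). Both genes were lower in all 3 mutant libraries.

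Of 10 tested genes of basal keratinocytes and the basement membrane, 3 fell and 1 rose, and with the replicate block 6 fell and 1 rose. Whether this gain exceeds that of all genes with the block was not tested. The gene called was *col17a1a*, which encodes the collagen of hemidesmosomes (−2.02, SE 0.18, adjusted p = 8.77e-05), at 182 to 197 CPM in WT vehicle and 35.4 to 61.5 CPM in mutant vehicle larvae. The gene that rose was *cd9b*, a tetraspanin (0.79, SE 0.10, adjusted p = 0.000557). The summed level of the list was 564 to 596 CPM in WT vehicle and 424 to 493 CPM in mutant vehicle larvae. Without *col17a1a* the other 9 genes summed to 381 to 398 and 389 to 431 CPM, which overlapped. These 9 include *cd9b*, at 76.5 to 88.7 CPM in WT vehicle and 129 to 153 CPM in mutant vehicle larvae. Its rise offsets falls of other genes in that sum, and the median log2 fold change of the 10 genes was −0.36. Of 12 tested transcription factors of the epidermis 4 fell, namely *tfap2a* (−0.58), *tfap2c* (−0.84), *klf4* (−0.78) and *gata3* (−0.56), and none was called. With the block 4 fell and 1 rose.

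The most abundant keratins of the skin surface did not pass the test. The type II keratin *krt4*, which marks the outer layer, was at 14332, 13279 and 11924 CPM in WT vehicle and 12839, 11728 and 10138 CPM in mutant vehicle larvae (−0.19, SE 0.11, adjusted p = 0.232). The type I keratin *cyt1* was at 6690, 7581 and 4980 CPM in WT and 6753, 6723 and 5541 CPM in mutant larvae (−0.02, SE 0.15, adjusted p = 0.949). In both genes the ranges of the 2 genotypes overlapped.

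The near copy *cyt1l* was at 5877, 6168 and 4382 CPM in WT vehicle and 6369, 5942 and 5051 CPM in mutant vehicle larvae (0.08, SE 0.14, adjusted p = 0.722). Of the counts of *cyt1* and *cyt1l* together, *cyt1* held 53.9 ± 1.11% in WT vehicle and 52.3 ± 0.808% in mutant vehicle larvae. Any reads shared by these copies, whose sequences were not compared here, may have been divided between them, so this split is uncertain. The type I keratin *krt91* was at 1834, 1997 and 1388 CPM in WT and 1319, 1416 and 937 CPM in mutant larvae, overlapping by 1 library (−0.51, SE 0.17, adjusted p = 0.0569), and passed with the replicate block (adjusted p = 0.000643).

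The plakins, large proteins that link keratin filaments to the cell envelope and desmosomes, did not pass either. Envoplakin, *evpla*, was at 72.0, 56.5 and 53.7 CPM in WT vehicle and 71.5, 66.4 and 70.4 CPM in mutant vehicle larvae (0.19, SE 0.12, adjusted p = 0.257). Periplakin, *ppl*, was at 303, 261 and 284 CPM in WT and 308, 256 and 272 CPM in mutant larvae (−0.02, SE 0.10, adjusted p = 0.897). Both overlapped between the genotypes. Without WT vehicle replicate 1, *evpla* passed the test (0.33, adjusted p = 0.0394).

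The S100 proteins of the ictacalcin kind, which bind calcium and are abundant in the skin of fish, did not pass the test. The gene *icn* was at 582, 475 and 556 CPM in WT vehicle and 532, 387 and 523 CPM in mutant vehicle larvae (−0.16, SE 0.14, adjusted p = 0.424). Its neighbour *icn2* was at 283, 230 and 222 CPM in WT and 240, 192 and 209 CPM in mutant larvae (−0.20, SE 0.12, adjusted p = 0.265). Within each of the 3 same-numbered pairs of libraries, *icn*, *icn2* and *krt4* were lower in the mutant, and with the replicate block their adjusted p was 0.111, 0.0671 and 0.0762. In a list of 7 tested genes of the periderm none was called, and 3 rose by less than 2-fold: *cldne* (0.33), *ahnak* (0.48) and *PKP1* (0.54). With the replicate block 4 rose and 1 fell. The summed level of that list was 1236 to 1373 CPM in WT vehicle and 1515 to 1596 CPM in mutant vehicle larvae. Much of this difference lay in *ahnak*, at 415 to 452 CPM in WT vehicle and 551 to 648 CPM in mutant vehicle larvae.

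Among the genes of the specialised skin cells, *agr2*, a disulfide isomerase that mucous cells need to fold mucins, fell by less than 2-fold. It was at 68.9, 65.9 and 64.4 CPM in WT vehicle and 36.8, 33.9 and 36.5 CPM in mutant vehicle larvae, 1.86-fold lower (−0.90, SE 0.08, adjusted p = 7.19e-05). The groups were tight and wide apart. Of 6 tested mucous cell genes 4 fell, of which the mucin *muc5.2* was called (−1.24, SE 0.09, adjusted p = 2.90e-05), and their list summed to 251 to 313 CPM in WT vehicle and 165 to 197 CPM in mutant vehicle larvae.

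The forkhead genes *foxi3a* and *foxi3b* specify ionocytes. Both had log2 fold changes below 0, and only *foxi3b* passed the test. The gene *foxi3b* was at 14.7, 12.5 and 15.5 CPM in WT vehicle and 8.92, 7.78 and 7.91 CPM in mutant vehicle larvae (−0.80, SE 0.12, adjusted p = 0.00122), with no overlap. The gene *foxi3a* was at 7.498, 6.64 and 7.73 CPM in WT and 6.98, 5.71 and 6.24 CPM in mutant larvae, and did not pass (−0.21, SE 0.12, adjusted p = 0.248). The difference between these 2 changes was not tested. Of 11 tested ionocyte genes none was called and 3 fell: the carbonic anhydrase *ca2* (−0.80), the cotransporter *slc12a10.2* (−0.89) and *gcm2* (−0.46). With the block 5 fell. The list summed to 262 to 288 CPM in WT vehicle and 201 to 246 CPM in mutant vehicle larvae.

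**Figure D3:**
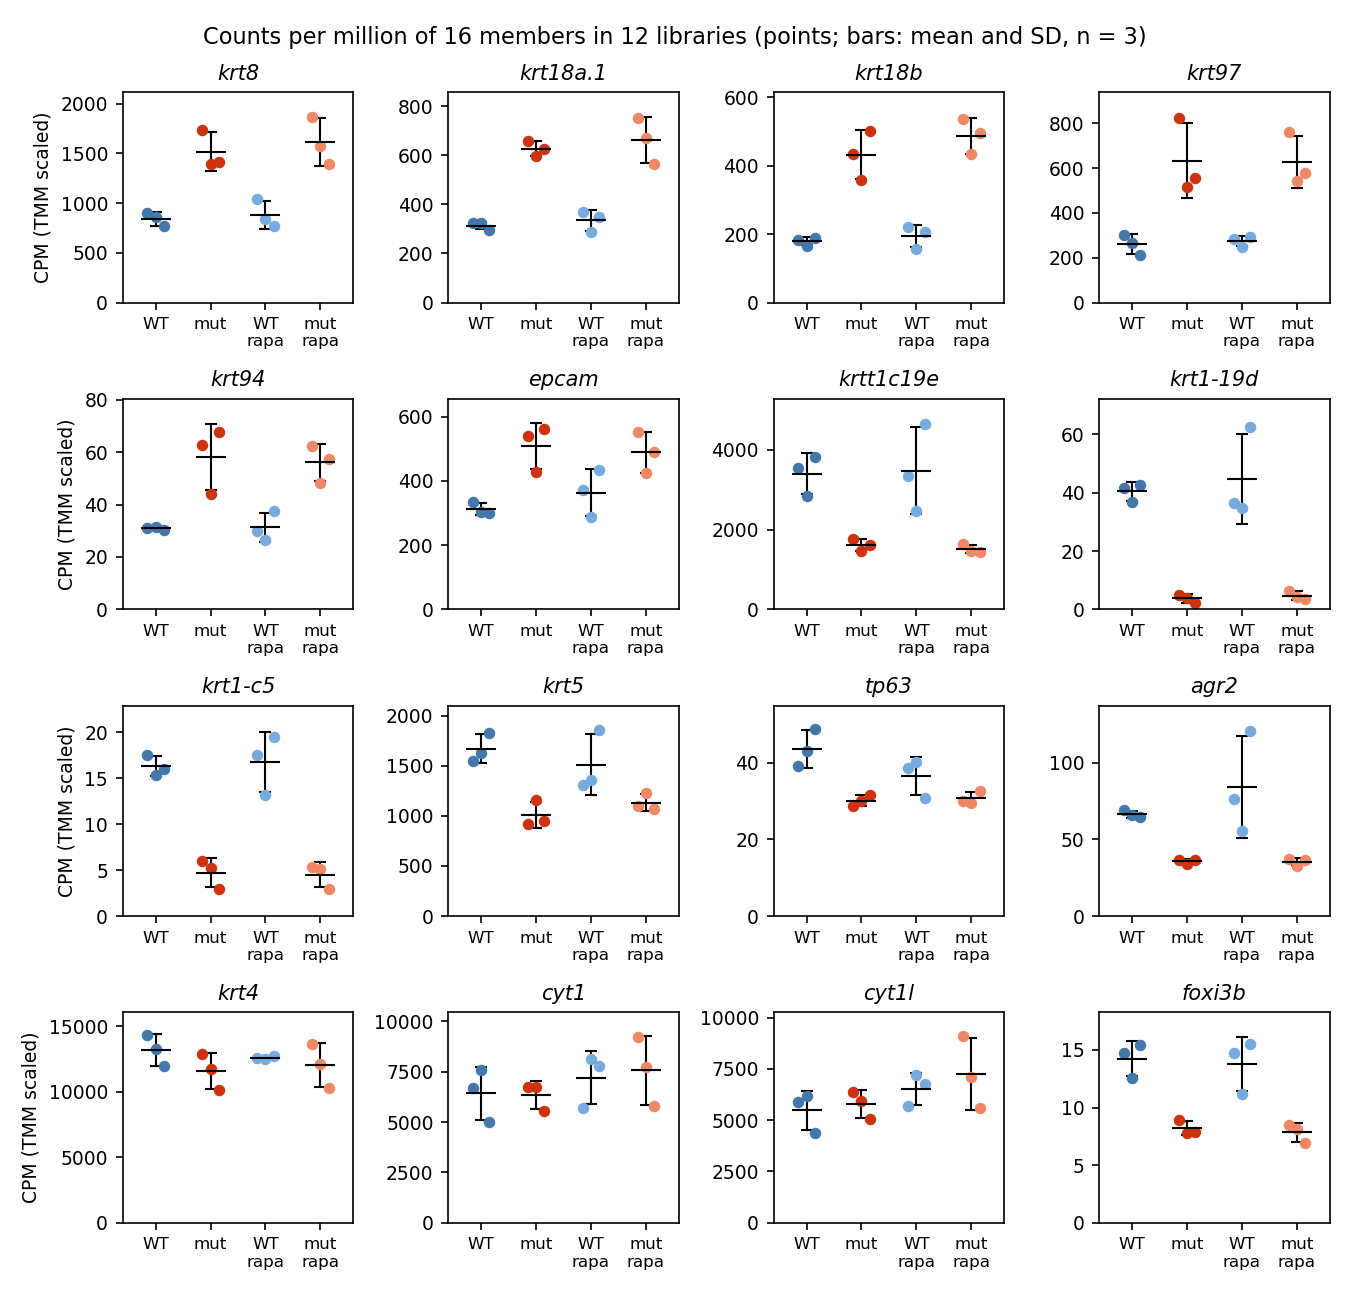
Level of 16 members in each of the 12 libraries (vertical axis, CPM scaled by TMM, from 0) by group (WT and mut, vehicle; WT rapa and mut rapa, rapamycin); points are libraries, bars mean and SD (n = 3). In vehicle the first 6 genes are higher in the mutants, the next 6 and *foxi3b* are lower, and *krt4*, *cyt1* and *cyt1l* overlap; in WT rapamycin larvae *krtt1c19e*, *krt1-19d* and *agr2* spread more than in the other groups, through replicate 3.

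Genes of other tissues also moved between these libraries, and the part that those tissues have in the keratin values was not tested. In a list of 8 tested genes of gut and pharyngeal endoderm, which forms internal epithelia, 4 fell and none rose. The list summed to 130 to 167 CPM in WT vehicle and 96.8 to 104 CPM in mutant vehicle larvae. Much of this difference lay in *fabp2*, at 56.5 to 93.9 CPM in WT vehicle and 39.1 to 51.4 CPM in mutant vehicle larvae. The gene called was *vil1* (−1.42), at 2.50 to 6.14 and 1.32 to 2.04 CPM, and *hnf4a*, *gata6* and *cldn15la* overlapped between the genotypes. In a list of 6 notochord genes, *noto* rose (2.78) while *col8a1a* (−1.57) and *entpd5a* (−2.73) fell, and the sums of 130 to 234 and 69.0 to 174 CPM overlapped. Of 5 tested genes of the fin fold, *fbln1* rose (0.77, adjusted p = 0.000499) and 3 were called lower, the actinodin genes *and1* (−1.96), *and2* (−2.20) and *and3* (−2.50). Their list summed to 1313 to 1489 CPM in WT vehicle and 326 to 458 CPM in mutant vehicle larvae. Without the 3 actinodin genes it summed to 90.1 to 93.7 and 102 to 118 CPM, higher in the mutants and without overlap. That difference lay mostly in *fbln1*, at 20.8 to 24.4 CPM in WT vehicle and 35.2 to 40.7 CPM in mutant vehicle larvae. The gene *hapln1a* overlapped, at 67.8 to 72.9 and 66.9 to 77.3 CPM. The further fin fold gene *hmcn2* was at 0 in every library. Of 7 tested liver genes 3 rose and 2 fell, with *fabp10a* called (−1.78), and of 7 lateral line genes 3 rose and 3 fell, with *fgf10a* called higher (2.15) and *prox1a* called lower (−1.02). The call of *prox1a* was lost without WT vehicle replicate 2 and without mutant vehicle replicate 3.

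Many of the keratin genes lie in rows in the genome, and whether neighbours moved alike was not tested. In the RefSeq annotation of the GRCz12tu assembly, which was used for gene order only, 7 members follow each other on chromosome 19: *krt1-19d*, *krtt1c19e*, *krt92*, *cyt1l*, *cyt1*, *krt17* and *krt91*. The genes at one end of the row, *krt1-19d* and *krtt1c19e*, were called lower, and the next, *krt92*, fell by less than 2-fold (−0.58, SE 0.08, adjusted p = 0.000959). The gene *krt92* was at 79.1, 77.7 and 78.3 CPM in WT vehicle and 56.8, 49.6 and 50.7 CPM in mutant vehicle larvae. The other 4 genes of the row did not pass, with log2 fold changes from −0.51 to 0.08. The lowest of these, −0.51, was that of *krt91* at the other end of the row, which passed with the replicate block.

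On chromosome 23 the order is *krt5*, *krt8*, *krt18a.1* and *krt18a.2*, and the fall of *krt5* stands next to the rise of *krt8* and *krt18a.1*. On chromosome 11, *krt94* rose while its near neighbours *krt15* and *krt99* had values below 0. The type I keratin *krt94* was at 31.03, 31.4 and 30.5 CPM in WT vehicle and 62.9, 43.9 and 67.9 CPM in mutant vehicle larvae (0.91, SE 0.15, adjusted p = 0.00219), and its change passed 2-fold without mutant vehicle replicate 2 (1.08). The gene *krt15* was at 125, 133 and 144 CPM in WT and 121, 109 and 100 CPM in mutant larvae, without overlap but not past the test (−0.28, SE 0.10, adjusted p = 0.0538), which it passed with the replicate block (adjusted p = 0.0393). Within a library, counts of *krt94* were 0.232 ± 0.0190 of those of *krt15* in WT vehicle and 0.533 ± 0.138 in mutant vehicle larvae, with no overlap.

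The last of that row, *krt99*, was at 10.9, 12.7 and 12.9 CPM in WT vehicle and 10.3, 8.25 and 8.78 CPM in mutant vehicle larvae (−0.42, SE 0.12, adjusted p = 0.0324). It no longer passed without WT vehicle replicate 2, WT vehicle replicate 3, mutant vehicle replicate 2 or mutant vehicle replicate 3, each left out alone (largest adjusted p = 0.127). On chromosome 22, *krt97* and *krt222* are neighbours and both rose. On chromosome 6, *krt4* lies close to *krt18b*, of which only the latter passed. On chromosome 19, *krt17* was at 194, 191 and 162 CPM in WT and 145, 169 and 219 CPM in mutant larvae (−0.04, adjusted p = 0.875). The member that is not a keratin, *krtcap2*, was at 44.5, 45.8 and 43.2 CPM in WT and 48.7, 46.7 and 57.5 CPM in mutant larvae (0.20, SE 0.09, adjusted p = 0.161).

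**Figure D4:**
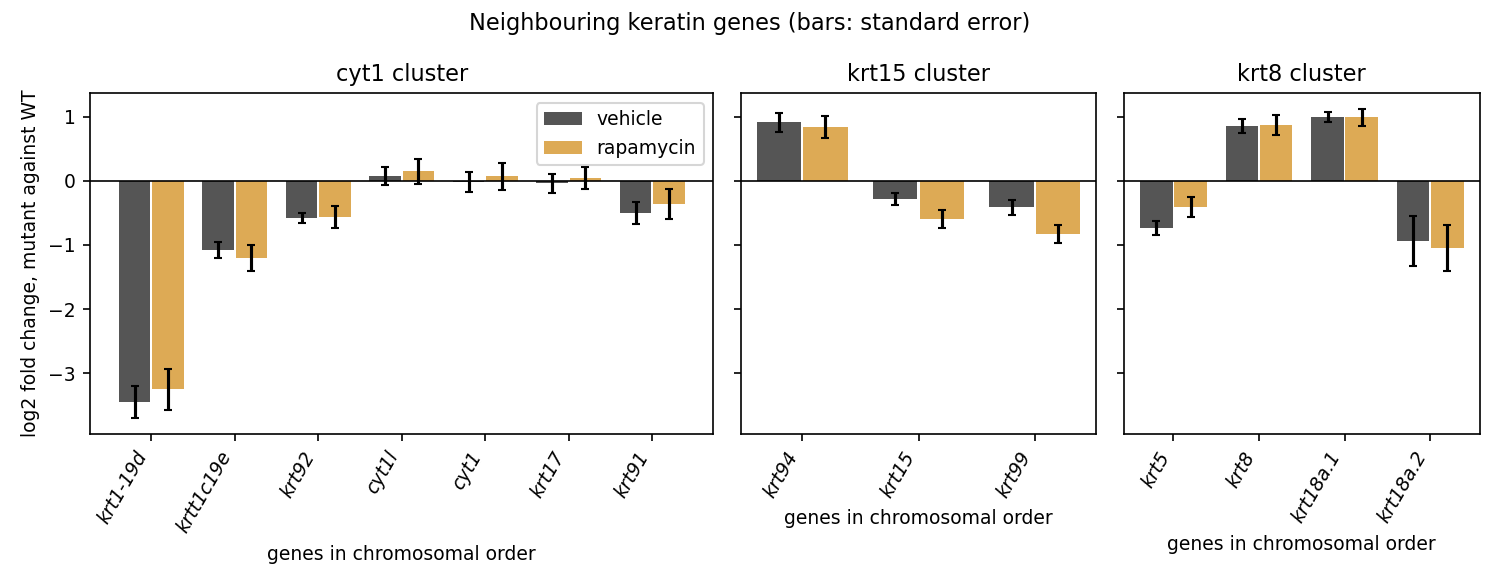
Log2 fold change of mutant against WT larvae (vertical axis) for keratin genes in their order along 3 chromosomes, in vehicle (dark bars) and rapamycin (light bars); error bars are standard errors, and the horizontal axis gives order, not distance. In the *cyt1* row the vehicle values go from −3.45 at *krt1-19d* to values near 0 at *cyt1l*, *cyt1* and *krt17*. The last gene of that row, *krt91*, is at −0.51. In the *krt8* row *krt5* lies below 0 beside *krt8* and *krt18a.1* above 0.

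The same comparison with rapamycin in both arms compared the 6 rapamycin libraries, in a model that took its estimate of the spread from all 12. It shows whether the genotype difference in these genes was also present in larvae given the drug. Libraries of the same replicate number deviated together across the groups, so it is not an independent repeat of the comparison in vehicle. In it 6 of 29 members were called, against 7.64% of 22841 genes tested, with 2 higher (3.84% of all genes) and 4 lower (3.8%). The test was passed by 14, against 17.4%, with 6 higher (9.11%) and 8 lower (8.28%). The values of the 2 genotypes did not overlap for 17 of 29, against 29.1% of all genes. Of the members that passed, 13 did so in both treatments and in the same direction, which is 81.2% of the 16 in vehicle and 92.9% of the 14 in rapamycin. All 5 members called in vehicle were called again. The shares of all genes that passed or were called in both treatments were not counted. Whether this overlap is particular to the members was therefore not tested.

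The same keratins, *krt8*, *krt18a.1* and *krt18b*, were also higher with rapamycin. The gene *krt18b* was at 221, 158 and 206 CPM in WT rapamycin and 537, 433 and 494 CPM in mutant rapamycin larvae (1.32, SE 0.16, adjusted p = 0.000123). The gene *krt8* was at 1037, 838 and 767 CPM in WT and 1869, 1577 and 1394 CPM in mutant larvae (0.87, SE 0.16, adjusted p = 0.00214). The groups did not overlap for either gene, nor for *krt18a.1* (0.99, SE 0.13, adjusted p = 0.000262), which was at 288 to 367 CPM in WT rapamycin and 566 to 752 CPM in mutant rapamycin larvae.

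Both changes depended on the WT rapamycin libraries kept. Without replicates 2 and 3 of that group, the libraries that stood apart, *krt8* was at 0.64 (adjusted p = 0.0334) and *krt18a.1* at 0.85 (adjusted p = 0.00337), and without replicate 1 they were at 1.01 and 1.06, past 2-fold. The change in *krt18a.1* was also past 2-fold without WT rapamycin replicate 3 (1.03) or mutant rapamycin replicate 3 (1.08), and was 0.86 without WT rapamycin replicate 2. Those in *krt18b* and *krt97* were 1.15 and 1.14 without replicates 2 and 3 together. The gene *krt97* was at 285, 248 and 291 CPM in WT rapamycin and 760, 544 and 580 CPM in mutant rapamycin larvae (1.19, SE 0.20, adjusted p = 0.00131), again well apart.

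The lower keratins were low again. The gene *krt1-19d* was at 36.6, 34.8 and 62.7 CPM in WT rapamycin and 6.28, 4.29 and 3.52 CPM in mutant rapamycin larvae, 9.52-fold lower (−3.25, SE 0.32, adjusted p = 2.84e-05). The gene *krt1-c5* was at 17.6, 13.2 and 19.5 CPM in WT and 5.38, 5.14 and 2.95 CPM in mutant larvae, 3.73-fold lower (−1.90, SE 0.28, adjusted p = 0.000515). In both genes every mutant library was below every WT library.

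The calls of *krtt1c19e* and *agr2* in rapamycin varied with the WT rapamycin libraries kept. The keratin *krtt1c19e* was at 3334, 2471 and 4641 CPM in WT rapamycin and 1628, 1462 and 1430 CPM in mutant rapamycin larvae (−1.21, SE 0.20, adjusted p = 0.00140). The mucous cell gene *agr2* was at 76.4, 55.2 and 120 CPM in WT and 36.9, 32.6 and 36.5 CPM in mutant larvae (−1.25, SE 0.21, adjusted p = 0.00139). Without WT rapamycin replicate 3, the highest library of both, the changes were −0.93 and −0.88, which still passed the test but were under 2-fold. Without replicates 2 and 3 of that group together they were −1.14 and −1.11 and both were called, with 1 WT rapamycin library left, which is assumed to vary like the other groups.

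Some members that passed in vehicle did not pass in rapamycin. The gene *tp63* was at 38.6, 40.3 and 30.9 CPM in WT rapamycin and 30.1, 29.6 and 32.6 CPM in mutant rapamycin larvae (−0.25, SE 0.12, adjusted p = 0.191). The low value of WT rapamycin replicate 3 lay within the mutant range, and without that library *tp63* passed (−0.34, adjusted p = 0.0260), but not without replicates 2 and 3 together (−0.33, adjusted p = 0.123). The gene *krt5* was at 1306, 1362 and 1861 CPM in WT and 1100, 1229 and 1067 CPM in mutant larvae, without overlap (−0.42, SE 0.16, adjusted p = 0.0907), and at −0.22 without the same library.

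The gene *epcam* was at 370, 287 and 433 CPM in WT rapamycin and 553, 425 and 490 CPM in mutant rapamycin larvae, overlapping by 1 library (0.43, SE 0.16, adjusted p = 0.0961). It passed with the replicate block (0.44, adjusted p = 0.0232) and without WT rapamycin replicate 3 (0.59, adjusted p = 0.0143), was at 0.25 without WT rapamycin replicate 2, and did not pass without both (0.40, adjusted p = 0.143). For none of these genes was the difference between the treatments past the test, as given with the interaction.

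Of the others, *foxi3b* (−0.81, adjusted p = 0.00276), *krt99* (−0.83, adjusted p = 0.00117), *krt15* (−0.59, adjusted p = 0.0125) and *krt92* (−0.56, adjusted p = 0.0396) were lower in mutant rapamycin larvae, and *krt94* (0.84, adjusted p = 0.00478) and *krt222* (0.65, adjusted p = 0.00619) were higher. The change in *krt94* was 1.004 without WT rapamycin replicate 3, just past 2-fold, and *krt92* lost its place in 9 of the 12 fits that left out 1 library. Without replicates 2 and 3 of that group together, *krt222* no longer passed (0.55, adjusted p = 0.0637), nor did *krt92*, and *krt99* was past 2-fold (−1.01). With the 6 rapamycin libraries fitted alone, *krt15* (−0.61, adjusted p = 0.104) and *krt92* (−0.58, adjusted p = 0.174) did not pass. The gene *krt18a.2* did not pass (−1.05, adjusted p = 0.0658) but was called with the replicate block (−1.08, adjusted p = 0.0218), and also without WT vehicle replicate 1 (−1.06, adjusted p = 0.0247). The abundant surface keratins again did not pass: *krt4* ranged over 12489 to 12721 CPM in WT rapamycin and 10274 to 13657 CPM in mutant rapamycin larvae (−0.07), *cyt1* was at 0.07 and *cyt1l* at 0.15.

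The lists of skin genes were counted in rapamycin too, where 9.11% of all genes passed the test higher and 8.28% lower. In lists this short, counts near these shares are no result about the list. Of the 11 genes of desmosomes and adherens junctions 4 rose and 0 fell, with *pkp2* (1.31) and *cdh1* (1.13) called again, and of the 7 periderm genes 1 rose and 0 fell. Of the 10 basal genes 1 rose and 1 fell, the latter *col17a1a* (−1.87), and with the replicate block 2 fell. Of the 12 transcription factors 1 fell, of the 6 mucous cell genes 3 fell, with *muc5.2* called (−1.18), and of the 11 ionocyte genes 3 fell. The calcium channel gene *trpv6* was the one called among these (−1.12, adjusted p = 0.0395), and it lost the call without WT vehicle replicate 2, WT rapamycin replicate 1 or 3, or any one of the mutant rapamycin replicates (largest adjusted p = 0.133).

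Rapamycin itself was compared with vehicle within each genotype. No member was called in WT larvae (0% of 22841 genes tested) or in mutant larvae (0%) by edgeR's quasi-likelihood test, here with the adjusted p below 0.05 as the sole condition. At an unadjusted p under 0.05 there was 1 member in WT, *krt99*, and 0 in mutant larvae, of 1394 and 150 genes, and DESeq2 called 2 genes in WT and 0 in mutant larvae, with 0 members among them. The value of *krt99* was 0.31 (SE 0.13, adjusted p = 0.790), with 10.9 to 12.9 CPM in WT vehicle and 13.3 to 17.1 CPM in WT rapamycin larvae. These comparisons share their vehicle and rapamycin libraries with those of genotype.

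The values of rapamycin and vehicle larvae did not overlap for 2 of 29 members in WT, *krt92* and *krt99*, against 10.7% of all genes, and for 0 of 29 in mutant larvae, against 4.41%. The gene *krt92* was at 92.0, 94.0 and 111 CPM in WT rapamycin larvae, above all 3 WT vehicle libraries, and at 87.9, 63.8 and 48.9 CPM in mutant rapamycin larvae. Its log2 fold change was 0.34 in WT and 0.35 in mutant larvae (SE 0.17 in both), and neither passed. The median over the 29 members was 0.12 in WT, where that of all genes was 0.01.

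WT rapamycin replicate 3 was the library that stood furthest from its group in these genes. In it *evpla* was at 33.1 CPM against 92.3 and 74.8 CPM in the other libraries of the group, *icn* at 802 against 516 and 461 CPM, and *icn2* at 361 against 225 and 215 CPM. With this library, the SD of the log2 differences of the members from the mean of the other libraries of the group was 0.422, against 0.157 to 0.293 for the other 11 libraries.

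The interaction of genotype and rapamycin, which asks whether the drug acted differently in mutants, was called for 0 members (0% of 22841 genes tested), with 0 members and 364 genes at an unadjusted p under 0.05, and DESeq2 called 2 genes, none of them a member. Log2 values of the interaction ran from −0.41 for *krt99* to 0.32 for *krt5* (SE 0.19 and 0.22), with *tp63* at 0.29 (SE 0.17), *epcam* at −0.27 (SE 0.23) and *agr2* at −0.35 (SE 0.29). For *krt8*, *krt18a.1* and *krt18b* they were 0.02, −0.01 and 0.05, with SE of 0.22, 0.18 and 0.22, so that a difference between the treatments of the size of these errors was not detectable.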

How the data were processed

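Whole-embryo RNA was sequenced as poly-A selected libraries, 3 in each of 4 groups. The authors deposited estimated counts per Ensembl gene as whole numbers, not scaled. The submitters' processing notes name Salmon and GRCz10 and the methods of the paper give STAR on GRCz10, so which tool gave the counts is not settled, and how reads of near-identical genes were shared is not stated. All 12 count columns were matched to samples by name.

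The quasi-likelihood test of edgeR 4.0.16 (R 4.3.3) was fitted after TMM normalisation and the filterByExpr filter, and p-values were adjusted by Benjamini-Hochberg over all genes tested. Mutant and WT larvae in vehicle were compared on their 6 libraries (22335 genes, biological coefficient of variation 15.0%), and all other comparisons used 1 model of 4 groups and 12 libraries (22841 genes, 22.4%). Standard errors were derived from the test statistic. Calls needed an adjusted p under 0.05 and, between genotypes, a 2-fold change. Precision is given by the spread of replicates, which labels and methods describe as pools of 20 embryos from independent clutches. The scripts were tested on simulated data.

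The members and the 11 lists of comparison genes (93 Ensembl identifiers matched, 19 listed genes not analysed here) were chosen with earlier results of these data known, so they are no independent evidence. List genes whose Ensembl symbol drops the paralog letter are given by that symbol. Members given in every library were, by rule, those called in any comparison, the 5 with the most counts, and *tp63*, *epcam*, *foxi3a*, *foxi3b*, *agr2*, *evpla*, *ppl* and the *icn* and *cyt1* genes. The others were added after their values were seen. Of list genes, at most 4 called ones are named, and those named as passing only the adjusted p were likewise added.

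Replicate numbers run from 1 to 3 in every group. After subtraction of group means, the 18 same-numbered pairs of libraries correlated over genes with a mean r of 0.383 (lowest 0.145), and the 36 pairs with different numbers with a mean of −0.191 (highest −0.000870). The subtraction forces the different-numbered pairs down where the same-numbered pairs are up, so their negative mean is no separate evidence. By the same-numbered pairs the numbers pair the samples, and a fit with the number as a block was an alternative. The others were each library left out in turn, dropping the 2-fold minimum, other filters, other sets of libraries, upper-quartile or RLE size factors, and DESeq2 1.42.0. No sequence is printed because no sequence of the files' build was used here.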

Additional observations from a re-analysis of the deposited data

How the results depend on the processing

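The 5 calls in vehicle were kept with DESeq2, RLE or upper-quartile size factors, no filter, a mean of at least 1 CPM, the replicate block and all 12 libraries in 1 model. The 6 calls in rapamycin were kept under the same alternatives and with the 6 rapamycin libraries alone, and DESeq2, upper-quartile factors and the block each added *krt18a.2*, giving 7. With no fold minimum there were 16 members in vehicle and 14 in rapamycin. Leaving out each library in turn gave 4 to 7 members in vehicle, 6 to 8 in rapamycin, and 0 to 0 for rapamycin against vehicle in either genotype and for the interaction. Leaving out WT rapamycin replicates 2 and 3 together, chosen after seeing the data, gave 7 in rapamycin and 0 in the others. Upper-quartile factors moved the median of all genes by −0.063 in vehicle and −0.071 in rapamycin. No sign of a called member turned.

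With the replicate number as a block, 5 members were called in vehicle, 7 in rapamycin, and 0 for rapamycin in WT, rapamycin in mutant larvae and the interaction. Besides *krt15*, *krt91*, *epcam* and *krt18a.2*, named in the report, no member's side of the test changed in the genotype comparisons. Other settings moved it too. In vehicle, *krt15* and *krt91* also passed with DESeq2 and with upper-quartile factors, and *krt15* with a mean of at least 1 CPM. There *krt222* was lost with upper-quartile factors and *krt99* with all 12 libraries in 1 model. In rapamycin, *krt5* passed with upper-quartile factors.

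Taking the 20 other genes of largest count out of each library raised the members' share to 4.52% in WT vehicle, 3.98% in mutant vehicle, 4.37% in WT rapamycin and 4.30% in mutant rapamycin larvae. This turned the order of the genotypes in rapamycin. The share in WT rapamycin replicate 2, a library that stood apart, went from 3.37% to 4.65%. In replicates 1 and 3 of that group it went from 3.50% to 4.29% and from 3.40% to 4.18%. The cause was not tested.

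With 3 libraries a group, changes near the standard errors given were not detectable, and *krt93* and *krt95* were too low to compare. Whole larvae do not show in which cells a keratin changed. Mutants were sorted by morphology, and heterozygotes are within the WT group. Counts of near-identical keratins depend on how reads were shared, which was not tested.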
